A study of Mus musculus with 12 samples.

Results

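The phase II conjugation enzymes described here are the glutathione S-transferases (GST), UDP-glucuronosyltransferases (UGT) and sulfotransferases (SULT) of mouse liver. They were chosen by gene symbol: Gst followed by a class letter and a number, or Ugt or Sult followed by a number, without pseudogenes. A member also needed a normalized value of at least 10 in at least 3 of the 12 libraries. The table held 64 such symbols, and 48 met the level filter, 19 GST, 15 UGT and 14 SULT genes of the 13871 genes tested. RNA came from whole mouse liver, with 3 libraries in each of 4 groups: KO MET/CAT, WT MET/CAT, KO GFP and WT GFP. KO livers lacked Sirt2, an NAD-dependent deacetylase, through a knockout that the series places in hepatocytes, and WT livers kept it. MET/CAT livers received plasmids for the receptor c-MET and for ΔN90-β-catenin, a beta-catenin without its amino terminus, both under the EF1a promoter, with the Sleeping Beauty transposase (50 µg of plasmid in all). These were pushed into the tail vein of mice aged 6 to 8 weeks, and livers were collected 8 weeks later. GFP livers are the plasmid controls, whose plasmid dose the labels leave out. The series asked what Sirt2 does in liver cancer formed by these oncogenes. For KO GFP and WT MET/CAT libraries the labels' treatment field names the other plasmid than the title does, and the titles decided the groups. Whether each library is a separate mouse is not stated, and the spread behind the p-values may be technical.

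Phase II enzymes join a water-soluble group to drugs, bilirubin, bile acids, steroids and reactive lipid products, which can then leave in bile or urine. GSTs transfer glutathione and work mostly in the cytosol. Most UGTs transfer glucuronic acid from UDP-glucuronic acid in the endoplasmic reticulum, and SULTs transfer sulfate from the cofactor PAPS. In liver many of these genes are known targets of the receptors CAR, PXR and AHR and of the stress factor NRF2, and several SULT and GST genes are known to differ between male and female mice.

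Sirt2 had 248, 234 and 201 in KO MET/CAT livers and 233, 183 and 126 in KO GFP livers, against 1068, 943 and 908 in WT MET/CAT livers and 824, 924 and 726 in WT GFP livers (normalized reads). All 6 KO libraries lay below all 6 WT libraries, and Sirt2 fell by 2.16 on the log2 scale in KO livers averaged over plasmids (SE 0.16, limma adjusted p = 3.61e-05). Which exons were deleted is not stated. The libraries held 18208879 to 24352961 reads, of which the 48 genes took 0.723% to 1.16%. All 8 hepatocyte markers were found in every library. KO GFP replicate 3 was unlike the others. On the leading principal component, which holds 21.96% of the variance, its score was −88.95 and those of the other libraries −33.2 to 52.8. Its values also followed transcript length most closely (rho = 0.435 over genes, which are no replicates). Several family medians and named members are therefore given with and without it. Genes outside the 48 are given only with all 12 libraries.

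Abundance was very unequal within each family. Compared per kilobase of exon, since longer genes collect more reads, Gstm1, a mu-class GST, came first with a mean of 30138 normalized reads per kilobase over the 12 libraries. It was followed by Gstp1, the pi-class GST, at 9341, Gsta3, an alpha-class GST, at 7873, and Ugt2b5, a UGT of the steroid and drug group, at 5902. Lengths counted every annotated exon base of a gene, 4344 for Gsta3, 1548 for Gstp1 and 1473 for Gstm1, so the order depends on them. Without division by length the means were 44393 for Gstm1, 34202 for Gsta3 and 14460 for Gstp1. The most abundant SULT per kilobase was Sult1a1, which sulfates small phenols, at 4954, and the least abundant member was Sult3a2 at 7.27. Summed over members, GST genes had 138652, 202873 and 108725 normalized reads in KO MET/CAT livers and 159184, 94452 and 147629 in WT MET/CAT livers. The GST sums were 116025, 131414 and 59639.5 in KO GFP livers and 132414, 148318 and 109891 in WT GFP livers. All 4 groups overlapped in these sums, and the lowest was that of KO GFP replicate 3. UGT sums ranged over 29608 to 45294 in KO MET/CAT livers, 33039 to 38192 in WT MET/CAT livers, 48362 to 53286 in KO GFP livers and 36106 to 50821 in WT GFP livers.

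Many members sit in gene clusters of close relatives, which bears on how their reads can be told apart. The Gstm genes lie together on chromosome 3, the Ugt1a genes on chromosome 1, the Ugt2 genes on chromosome 5, the Sult2a genes on chromosome 7 and the Gstt genes on chromosome 10. Windows of 100 bases that recur exactly in another gene's transcripts made up 81.8% of the windows of Gsta1, 63.5% of Gstp2, 52.8% of Gstp1, 35.0% of Gsta2 and 34.6% of Sult2a2. Their values are uncertain to that extent. The 5 Ugt1a members use separate first exons and the same later exons, and 50.3% to 60.6% of their exonic bases lie in other genes of the cluster on the same strand. How the authors' counting treated such bases is not stated, so the 5 values may depend on each other. For Gstm3 the share of windows found elsewhere was 13.8%, mostly in pseudogenes, for Gstm2 it was 0.62%, and for Ugt2b35, Sult1b1 and Sult2a8 it was 0.

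**Figure D1:**
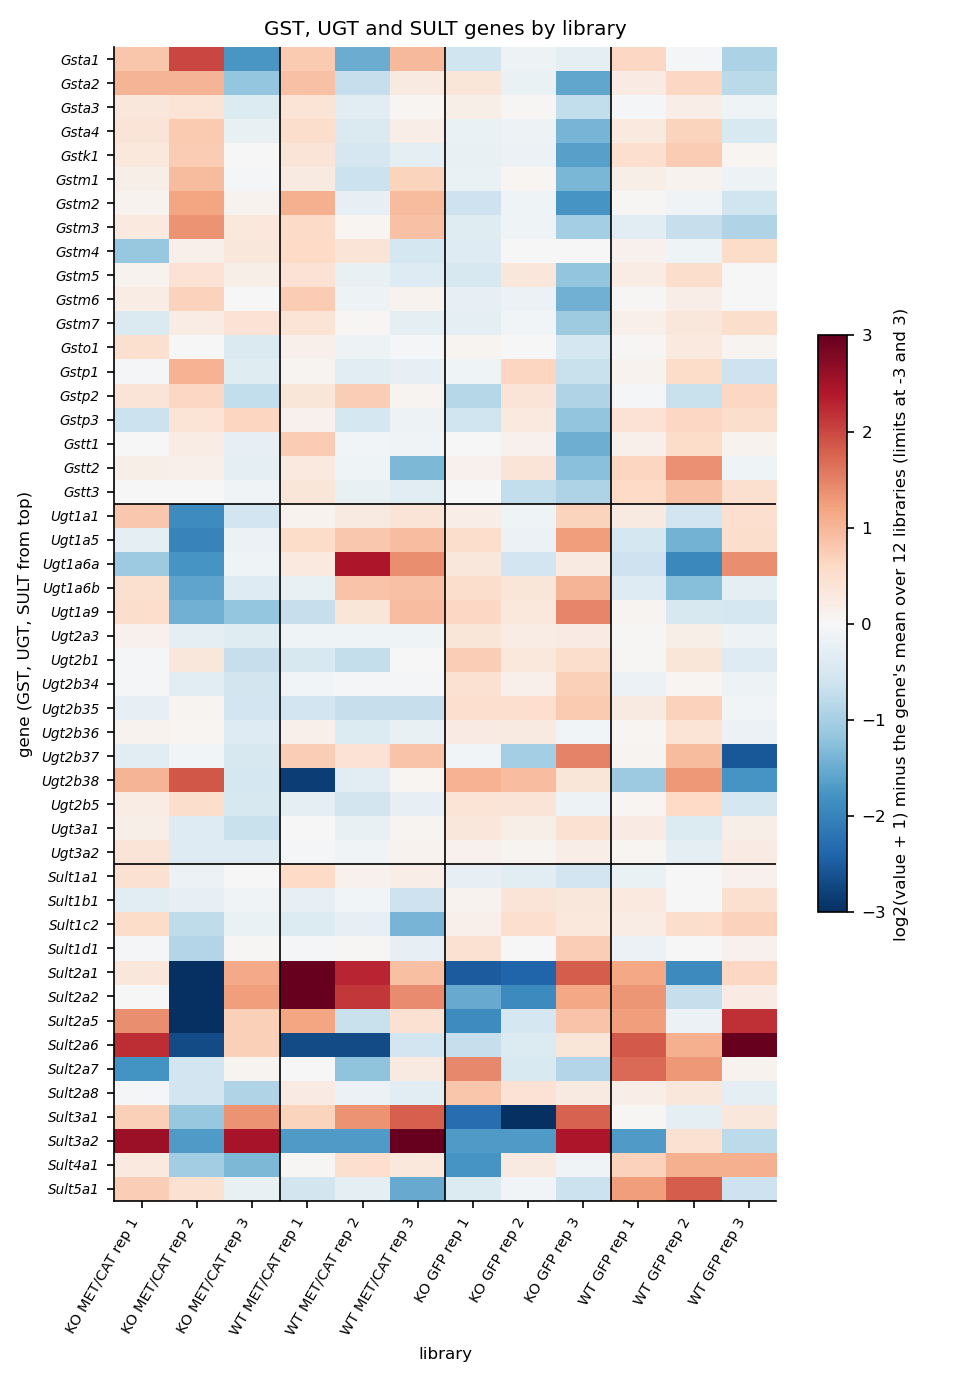
Each row is 1 of the 48 genes and each column 1 library. Colour gives log2(value + 1) minus the gene's mean over the 12 libraries. Most GST rows are lowest in KO GFP replicate 3, and Sult2a1, Sult2a2 and Sult2a5 are lowest in KO MET/CAT replicate 2.

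In MET/CAT livers, averaged over both genotypes, 1 member rose and 1 fell. Gstm3, a mu-class GST, was about 2.22-fold higher, and Ugt2b35, a UGT2 enzyme, was at 0.537 of its level in GFP livers. Of all 13871 genes, 2.4% were called higher and 1.4% lower in this comparison (527 genes, 3.8%), so 2 of 48 members is close to the share among all genes. The test was limma on log2(value + 1) with Benjamini-Hochberg adjustment over all genes, called at an adjusted p under 0.05. Whole liver was sequenced, so fewer cells of a type and less RNA per cell cannot be told apart.

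Gstm3 (chr3:107963696-107969283, minus strand, GRCm38) had 4174, 8685 and 4270.3 in KO MET/CAT livers and 5088, 3575 and 6331 in WT MET/CAT livers, against 2682, 3160.3 and 1682 in KO GFP livers and 2715, 2117 and 1821 in WT GFP livers. Every MET/CAT library was above every GFP library, and KO MET/CAT replicate 2 was the highest. The difference was 1.15 on the log2 scale (SE 0.23, 95% interval 0.67 to 1.63, adjusted p = 0.0123), and its adjusted p stayed at or under 0.0364 with any 1 library left out. It was of like size in both genotypes, at 1.15 in KO livers (adjusted p = 0.0922) and 1.15 in WT livers (adjusted p = 0.118), where 3 libraries met 3 and neither passed. A lack of overlap between all MET/CAT and all GFP libraries, toward higher values, was seen for 1.61% of all genes and, among the members, for Gstm3.

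Ugt2b35 (chr5:87000860-87013275, plus strand) had 1655, 2063 and 1308 in KO MET/CAT livers and 1319, 1215 and 1212 in WT MET/CAT livers, against 2774, 2791 and 3378 in KO GFP livers and 2347, 3162 and 1856 in WT GFP livers. All 3 WT MET/CAT libraries and KO MET/CAT replicates 1 and 3 lay below the lowest GFP library, and KO MET/CAT replicate 2 lay between WT GFP replicates 3 and 1. The log2 difference was −0.90 (SE 0.15, 95% interval −1.23 to −0.57, adjusted p = 0.00643), and the adjusted p was at most 0.0221 with any 1 library left out. Within a genotype it was −0.85 in KO livers (adjusted p = 0.0731) and −0.94 in WT livers (adjusted p = 0.0722).

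Of the next members by p, Sult1b1, a sulfotransferase of thyroid hormones and small phenols, just missed the threshold. Its values were 399.8, 418 and 465 in KO MET/CAT livers and 416, 469 and 321 in WT MET/CAT livers, against 536, 646 and 631 in KO GFP livers and 609, 502 and 695 in WT GFP livers. All 6 MET/CAT libraries lay below all 6 GFP libraries, a pattern that 0.872% of all genes showed (log2 difference −0.54, SE 0.14, adjusted p = 0.0504). Gstm2, the next gene to Gstm3 in its cluster, had 2388, 5037 and 2412 in KO MET/CAT livers and 4658, 1884 and 4325 in WT MET/CAT livers, against 1445, 2040.2 and 654 in KO GFP livers and 2288, 2074 and 1469.9 in WT GFP livers. WT MET/CAT replicate 2 was inside the range of the GFP libraries, and the others lay above it (log2 difference 1.06, SE 0.31, adjusted p = 0.0743). The gene passed without that library (adjusted p = 0.0332) and without KO GFP replicate 2 (adjusted p = 0.0467), and in none of the other 10 fits with 1 library left out. Sult2a8, a liver sulfotransferase of bile acids in mouse, had 5406, 3736 and 2955 in KO MET/CAT livers and 6642, 4949 and 4377 in WT MET/CAT livers, against 9859, 7566 and 6746 in KO GFP livers and 6379, 7007 and 4601 in WT GFP livers. KO GFP libraries lay above all MET/CAT libraries, and WT GFP libraries overlapped both MET/CAT groups (log2 difference −0.60, SE 0.18, adjusted p = 0.0883). Its interval ran over −0.99 to −0.21.

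Promoter sequence is shown for the 2 members that changed and for 2 members near the threshold, Gstm2 as the neighbour of Gstm3 and Sult2a8 for the match described below. Each run is the 250 bases before a RefSeq transcript start on GRCm38.p6, read 5′ to 3′ in the direction of transcription. Capitals mark letters that match a searched motif. Gstm3 lies at chr3:107969175-107969424 (minus strand), Gstm2 at chr3:107986421-107986670 (minus), Ugt2b35 at chr5:87000610-87000859 (plus) and Sult2a8 at chr7:14446588-14446837 (minus, the first of its 2 RefSeq starts).
Gstm3: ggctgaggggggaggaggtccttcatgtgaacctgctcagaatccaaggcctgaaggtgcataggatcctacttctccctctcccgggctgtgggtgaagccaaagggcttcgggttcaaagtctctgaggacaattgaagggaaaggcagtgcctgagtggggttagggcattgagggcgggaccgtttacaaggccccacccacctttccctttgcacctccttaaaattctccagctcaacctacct
Gstm2: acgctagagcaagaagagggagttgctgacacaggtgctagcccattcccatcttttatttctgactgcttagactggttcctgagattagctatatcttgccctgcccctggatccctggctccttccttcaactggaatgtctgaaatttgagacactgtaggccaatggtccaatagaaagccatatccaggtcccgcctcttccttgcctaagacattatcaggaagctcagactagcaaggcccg
Ugt2b35: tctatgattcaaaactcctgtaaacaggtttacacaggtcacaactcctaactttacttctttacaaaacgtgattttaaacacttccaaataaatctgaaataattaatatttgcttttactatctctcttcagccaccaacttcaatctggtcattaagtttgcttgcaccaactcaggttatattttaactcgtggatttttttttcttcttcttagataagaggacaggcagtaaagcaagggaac
Sult2a8: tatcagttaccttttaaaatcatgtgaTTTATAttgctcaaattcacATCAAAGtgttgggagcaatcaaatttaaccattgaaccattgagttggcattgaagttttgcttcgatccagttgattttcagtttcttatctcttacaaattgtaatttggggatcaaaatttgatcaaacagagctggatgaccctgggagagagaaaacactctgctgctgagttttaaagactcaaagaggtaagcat
RefSeq promoters were found for 40 of the 48 members, and both strands of the 250 bases before each start were searched. TCF and LEF proteins are the DNA-binding partners of beta-catenin, and their core was searched as ATCAAAG. Sult2a8 was the only 1 of the 40 members with these letters, 203 bases before the first of its 2 starts, and 3.21% of 32851 promoters held them. Its second start lacked them and held only TATA letters, 29 bases before that start. The bases just after the first start were not found as an unbroken run in a GENCODE transcript of Sult2a8, while those after the second were. The TATA box was searched as TATAAA, and the Sult2a8 run held its other strand 223 bases before the start. TATA letters stood in 8 members and in 12.4% of all promoters. The antioxidant response element, which NRF2 binds, was searched by its core TGACNNNGC, found in 3 members, Gsta3, Gstm5 and Gstm7, and in 10.2% of all promoters. An arm of the site of HNF1, a liver transcription factor, was searched as GTTAAT, found in 11 members and in 6.43% of all promoters. The STAT core TTCNNNGAA stood in 4 members and in 7.02% of all promoters. The Gstm3, Gstm2 and Ugt2b35 runs held none of the 5 motifs. Matches of different motifs may overlap, and each motif was counted on its own. These are matches of letters only.

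**Figure D2:**
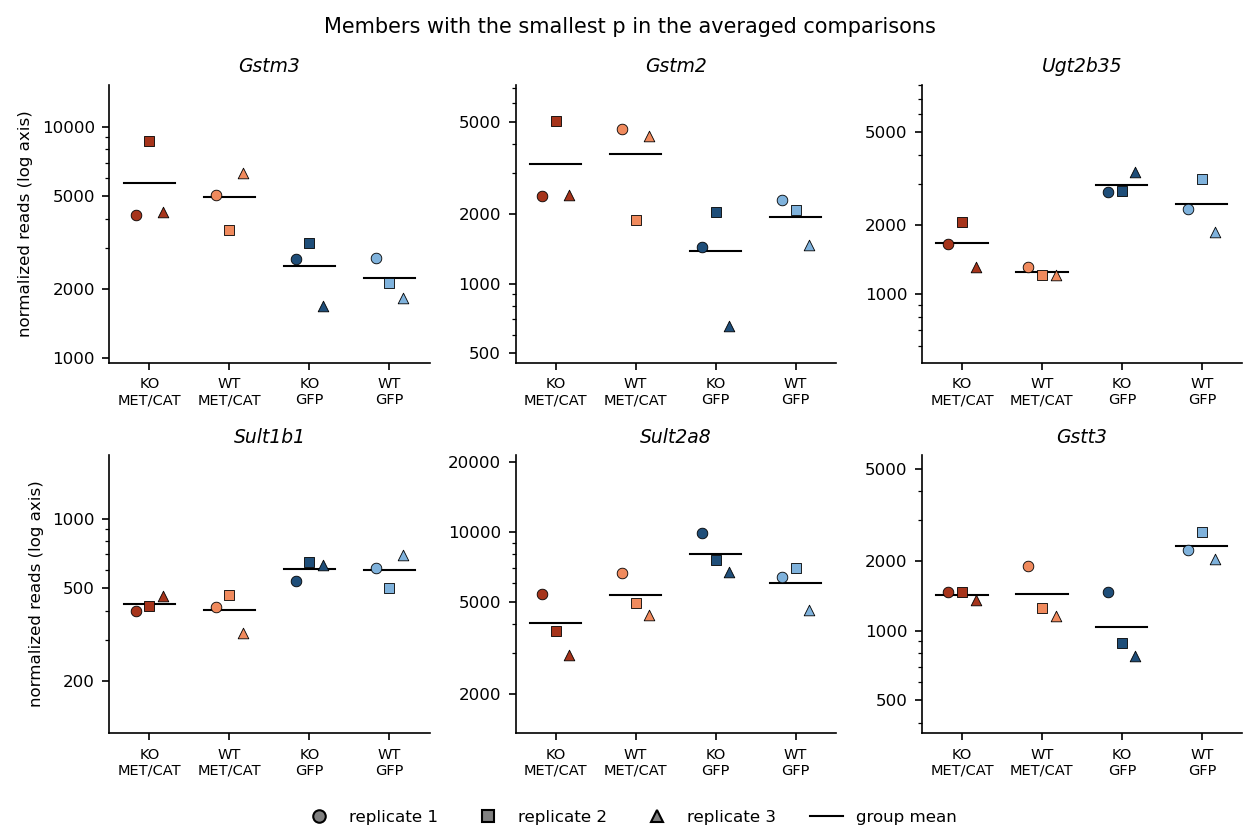
Normalized reads (log axis) of 6 genes in each library, by group, with a bar at each group's mean. The Gstm3 points of both MET/CAT groups lie above those of both GFP groups, the Sult1b1 points lie below, and the Gstt3 points are highest in WT GFP livers.

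Across the GST family, 15 of 19 members had a positive log2 difference in the averaged comparison (median 0.19, against 0.02 over all genes tested), and 1, Gstm3, passed. This lean rested on KO GFP replicate 3: without that library 9 of 19 were positive and the median was −0.0003. Leaving out WT MET/CAT replicate 1 gave 0.07, equal library totals 0.02 (11 of 19) and library quality weights 0.04 (10 of 19). In the mu class 6 of 7 Gstm genes were positive, with a median of 0.47, and 4 of 7 without KO GFP replicate 3, with a median of 0.25. Gstm6 had log2 difference 0.54, SE 0.23, adjusted p = 0.223. Gstm1, the most abundant, had 46891, 79333 and 40034 in KO MET/CAT livers and 50272, 26624 and 66221 in WT MET/CAT livers, against 35849.8, 43336 and 15911 in KO GFP livers and 46672, 44441 and 37131 in WT GFP livers, and its groups overlapped (log2 difference 0.47, SE 0.29, adjusted p = 0.431). Of the alpha class, which reduces lipid peroxides and conjugates aldehydes such as hydroxynonenal, all 4 members were positive (median 0.43, and 0.19 without KO GFP replicate 3) and none passed. Gsta3 had 42003, 44577 and 25146 in KO MET/CAT livers and 44163, 26799 and 34477 in WT MET/CAT livers, against 37617, 34122 and 19928 in KO GFP livers and 32654, 38268 and 30671 in WT GFP livers. These libraries overlapped widely (log2 difference 0.16, SE 0.21, adjusted p = 0.753), and the sign turned with equal library totals (−0.00298) and with library quality weights (−0.0917). Gstp1 had 12961, 28017 and 10555 in KO MET/CAT livers and 14340.3, 10687 and 11489 in WT MET/CAT livers, against 12416, 21104 and 8553 in KO GFP livers and 14631, 19890.1 and 8874 in WT GFP livers. KO MET/CAT replicate 2 and KO GFP replicate 2 were the highest libraries of their groups, and the difference was near 0 (log2 difference 0.04, SE 0.28, adjusted p = 0.965), negative under several alternatives. Of the theta class Gstt1, Gstt2 and Gstt3, 1 was positive and 2 negative. The single kappa and omega members, Gstk1 of mitochondria and peroxisomes and Gsto1, which reduces dehydroascorbate and arsenic compounds, did not pass.

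Among the UGT genes, 12 of 15 had a negative log2 difference (median −0.25), and 1, Ugt2b35, passed. In the Ugt2b group, which glucuronidates steroids, bile acids and drugs, 6 of 7 were negative with a median of −0.25. Besides Ugt2b35, these included Ugt2b1 (log2 difference −0.53, SE 0.20, adjusted p = 0.163) and Ugt2b34 (log2 difference −0.35, SE 0.13, adjusted p = 0.176). Ugt2b34 had 4457, 3702 and 3150.5 in KO MET/CAT livers and 4389, 4501 and 4488 in WT MET/CAT livers, against 6279, 5134 and 7579 in KO GFP livers and 4104, 4807 and 4133 in WT GFP livers. Its KO GFP libraries were the 3 highest, and the other groups overlapped. Ugt2b5, the most abundant, had 12397, 15302 and 7551 in KO MET/CAT livers and 8760.5, 7243 and 8937 in WT MET/CAT livers, against 14104, 13737 and 9439 in KO GFP livers and 10909, 15889.8 and 7313 in WT GFP livers, where WT MET/CAT libraries lay below all KO GFP libraries and every other pair of groups overlapped (log2 difference −0.25, SE 0.22, adjusted p = 0.599). Ugt2b36 (log2 difference −0.24, SE 0.16, adjusted p = 0.469) and Ugt3a2 (log2 difference −0.14, SE 0.15, adjusted p = 0.69) were also abundant and did not pass. Ugt2b36 ranged over 7478 to 13303 and Ugt3a2 over 4055 to 6931 across the 12 libraries, and MET/CAT and GFP libraries overlapped in both.

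Of the SULT genes, 9 of 14 had a negative difference (median −0.43), none passed, and 7 had an unadjusted p under 0.05. Besides Sult1b1 and Sult2a8, Sult1c2 had log2 difference −0.81, SE 0.25, adjusted p = 0.0992, and Sult1d1, which sulfates catecholamines, had log2 difference −0.39, SE 0.18, adjusted p = 0.27. Sult1a1 differed the other way (log2 difference 0.41, SE 0.15, adjusted p = 0.16). It had 10013, 6473 and 7297 in KO MET/CAT livers and 11042, 7902 and 8424 in WT MET/CAT livers, against 6124, 5894 and 4858 in KO GFP livers and 6330.4, 7232 and 8008 in WT GFP livers, and WT GFP replicates 2 and 3 lay inside the MET/CAT range. Over all members, 14 of 48 had an unadjusted p under 0.05, a share of 29.2% against 17.9% of all genes tested.

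**Figure D3:**
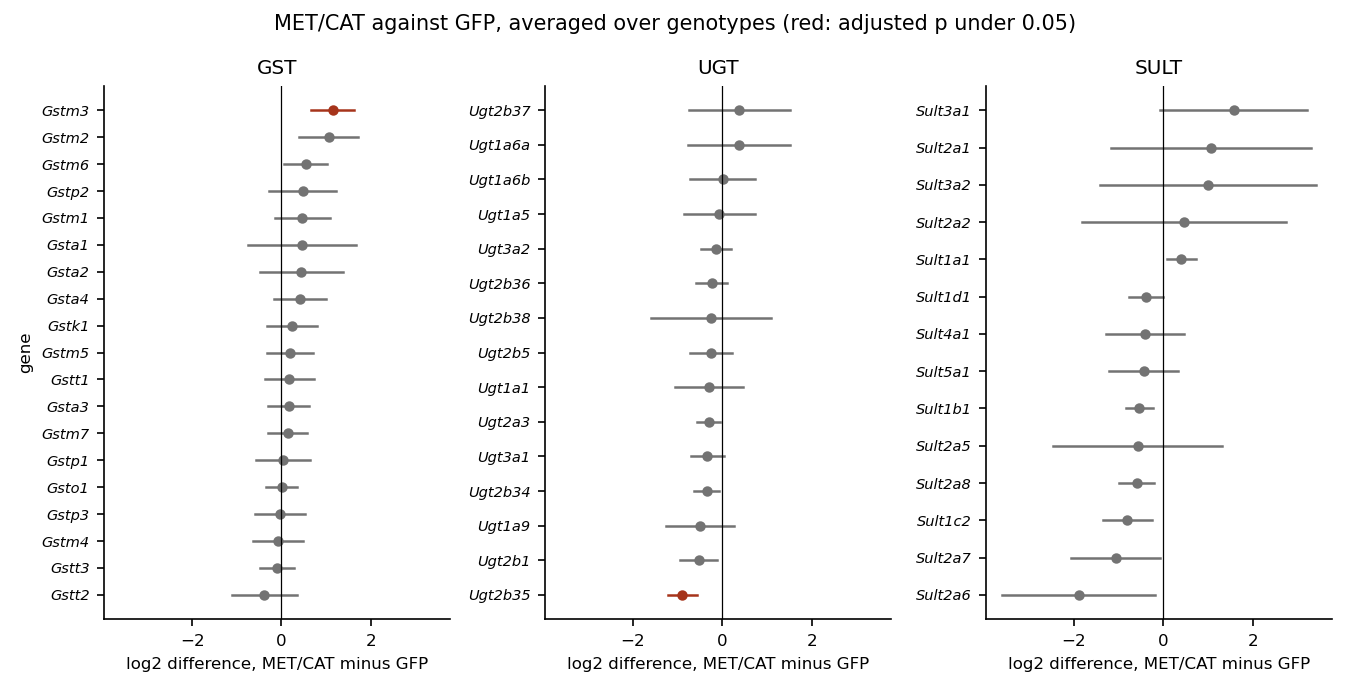
Log2 difference of MET/CAT minus GFP livers averaged over genotypes, with 95% intervals, for the GST, UGT and SULT genes in 3 panels. Red marks an adjusted p under 0.05, which is met by Gstm3 at 1.15 and Ugt2b35 at −0.90.

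Taken within KO livers, MET/CAT against GFP called none of the 48 members, where 1.25% of all genes were called (0.858% higher, 0.397% lower). In this comparison 17 members (35.4%) had an unadjusted p under 0.05, against 20.3% of all genes. No member was called by edgeR, and DESeq2 called 4 (8.33%), against 6.69% of all genes. Sult3a1 passed by limma when KO GFP replicate 3 was left out (log2 difference 3.61, adjusted p = 0.037), against 1.92 with it (adjusted p = 0.332). Of the families, 18 of 19 GST genes were positive (median 0.64) and 14 of 15 UGT genes negative (median −0.67), against a median of 0.05 over all genes. Without KO GFP replicate 3, the GST median was 0.31 with 14 of 19 positive, and the UGT median was −0.58 with 14 of 15 negative. With each library's trend with transcript length removed the medians were 0.24 and −0.79, and without KO MET/CAT replicate 3 the UGT median was −0.43. The smallest p belonged to Sult2a8 (log2 difference −1.03, SE 0.26, adjusted p = 0.0701), Ugt2b34 (log2 difference −0.74, SE 0.19, adjusted p = 0.072) and Ugt2b35. With any 1 library left out, Sult2a8 ran over −1.26 to −0.82 and Ugt2b34 over −0.89 to −0.61. Libraries did not overlap for 5 members higher (Gstk1, Gstm2, Gstm3, Gstm6, Sult1a1) and 6 lower (Sult1b1, Sult2a8, Ugt1a5, Ugt2a3, Ugt2b34, Ugt2b35), beside 14.4% and 10.7% of all genes.

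Within WT livers, MET/CAT against GFP also called none of the 48 members, beside 0.339% of all genes (0.209% higher, 0.13% lower). Here 11 members (22.9%) had an unadjusted p under 0.05, against 14.8% of all genes. No member was called by edgeR, and DESeq2 called 4 (8.33%), against 4.09% of all genes. The medians were −0.07 for GST, −0.01 for UGT and −0.38 for SULT genes, against −0.01 over all genes. With 1 library left out they ran over −0.26 to 0.08, −0.08 to 0.05 and −0.56 to −0.20. Sult2a6 had 0, 0 and 3.34 in WT MET/CAT livers, against 21.9, 12.5 and 73.6 in WT GFP livers, with 2 of the 3 WT MET/CAT libraries at 0 and 3 reads in the third (adjusted p = 0.116). At these levels no fold is given. Only the WT GFP libraries and KO MET/CAT replicate 1 (28.9) reached 10. The gene thus met the level filter through the group where it was high, and its order here is no support for a change. No overlap was seen for 5 members higher (Gstm3, Sult2a2, Sult3a1, Ugt1a5, Ugt1a6b) and 7 lower (Gstp3, Gstt3, Sult1b1, Sult1c2, Sult2a6, Sult4a1, Ugt2b35), beside 10.5% and 10.3% of all genes.

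The Ugt1a group, which includes the bilirubin-conjugating Ugt1a1 and the phenol-conjugating Ugt1a6 enzymes, leaned opposite ways in the 2 genotypes. MET/CAT minus GFP was negative for 5 of 5 members in KO livers (median −1.13) and positive for 5 of 5 in WT livers (median 1.14), and none passed in either. Without KO MET/CAT replicate 2 the KO median was −0.62, with 5 of 5 still negative. Ugt1a5 had 338, 103 and 367 in KO MET/CAT livers, against 602, 369.8 and 988 in KO GFP livers, and all 3 KO MET/CAT libraries were below all 3 KO GFP libraries (log2 difference −1.36, SE 0.52, adjusted p = 0.174). In WT livers it had 615, 731 and 789 in WT MET/CAT livers, against 287, 156 and 600.3 in WT GFP livers, and the order was the reverse (log2 difference 1.24, SE 0.52, adjusted p = 0.293). Ugt1a6b had 152, 35.6 and 81.7 in KO MET/CAT livers and 91.7, 196 and 199 in WT MET/CAT livers, against 155, 138 and 219.7 in KO GFP livers and 82.8, 44.2 and 90.1 in WT GFP livers. The interaction, the plasmid effect in KO livers minus that in WT livers, was −2.60 for Ugt1a5 (SE 0.74, adjusted p = 0.265) and −2.26 for Ugt1a6b (SE 0.68, adjusted p = 0.265). No member passed the interaction test by limma (0% of all genes passed), while 11 (22.9%) had an unadjusted p under 0.05, against 15.5% of all genes. None was called by edgeR, and DESeq2 called 1 (2.08%), against 1.12% of all genes. KO MET/CAT replicate 2 was the lowest library of its group for all 5 genes, and because exons are shared the 5 are not separate observations.

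**Figure D4:**
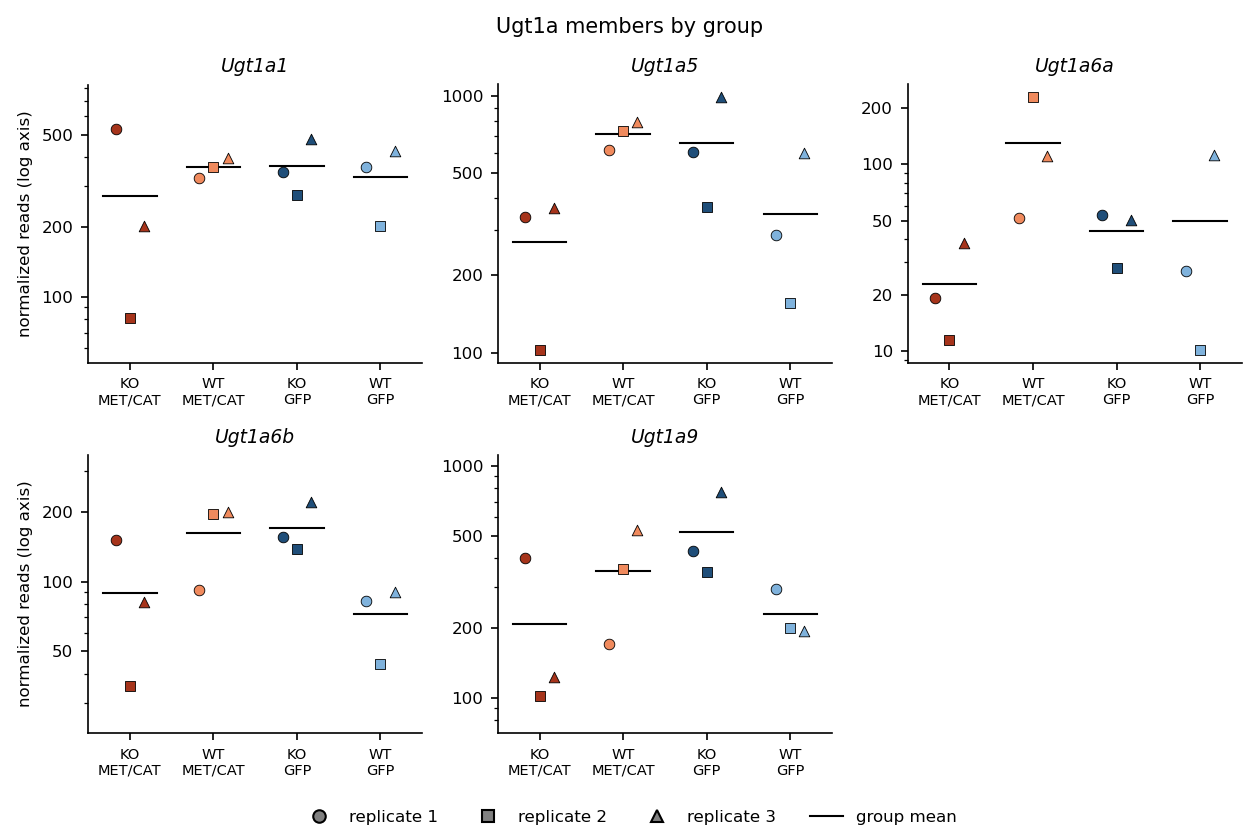
Normalized reads (log axis) of the 5 Ugt1a genes in each library, by group, with a bar at each group's mean. WT MET/CAT points of Ugt1a5 lie above WT GFP points, and KO MET/CAT points lie below KO GFP points.

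Comparing KO with WT in GFP livers, no member was called, beside 0.00721% of all genes (0% higher, 0.00721% lower), which is Sirt2 alone. There were 9 members (18.8%) with an unadjusted p under 0.05, close to the 15.5% of all genes. None was called by edgeR, and DESeq2 called 1, Gstt3 (2.08%), against 0.851% of all genes. Gstt3, a theta-class GST, had 1470.4, 882 and 774 in KO GFP livers, against 2219, 2677 and 2037 in WT GFP livers, and the highest KO library was below the lowest WT library (log2 difference −1.20, SE 0.25, adjusted p = 0.163). Gstk1 had 2646, 2741 and 1003 in KO GFP livers, against 4379, 5232 and 3213 in WT GFP livers (log2 difference −1.11, SE 0.36, adjusted p = 0.287). Gstm7, another mu-class gene, had 1344, 1559 and 784 in KO GFP livers, against 1825, 2067 and 2355 in WT GFP livers (log2 difference −0.81, SE 0.28, adjusted p = 0.287). KO GFP replicate 3 was the lowest of all 12 libraries for all 3 genes, and without it the log2 differences of Gstk1 and Gstm7 were −0.64 and −0.52. That of Gstt3 ran over −1.47 to −1.01 with any 1 library left out. The other KO GFP libraries of Gstk1 also lay below the WT GFP range.

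In this comparison 18 of 19 GST genes were negative (median −0.62), 15 of 15 UGT genes were positive (median 0.40), and 10 of 14 SULT genes were negative (median −0.996), against a median of −0.07 over all genes. Without KO GFP replicate 3 the medians were −0.25, 0.27 and −1.04, and with the length trend removed they were −0.18, 0.56 and −0.38. The UGT median was 0.64 without KO GFP replicate 2. The SULT median was −0.35 without KO GFP replicate 2, −0.55 without KO GFP replicate 1, −0.49 without WT GFP replicate 1, −0.20 by edgeR and −0.21 by DESeq2. The GST genes of that library averaged 1.07 log2 units below their 12-library means, where the other KO GFP libraries were at −0.23 and 0.02. No overlap was seen for 4 members higher (Ugt1a6b, Ugt1a9, Ugt2a3, Ugt2b34) and 8 lower (Gstk1, Gstm6, Gstm7, Gstp3, Gstt3, Sult1a1, Sult2a6, Sult4a1), beside 9.15% and 13% of all genes. Sult2a6 met the level filter through its WT GFP libraries, so its order here is no support for a change. Among cell type markers, the 10 Kupffer and macrophage genes were all lower in KO GFP livers, none passing and none of them at 0. Their summed level was 1501 to 4798 in KO GFP livers, lowest in KO GFP replicate 3, against 7604 to 10518 in WT GFP livers. The 7 lymphocyte and 6 tested cholangiocyte markers were also all lower, none passing. Lower too were 5 of 7 endothelial, 4 of 7 stellate and fibroblast, 4 of 6 neutrophil and 3 of 8 hepatocyte markers. The part of these markers in the GST values was not tested.

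In MET/CAT livers the knockout also called no member, beside 0.00721% of all genes (0% higher, 0.00721% lower). There were 5 members (10.4%) with an unadjusted p under 0.05, against 7.76% of all genes, and neither edgeR nor DESeq2 called any, where DESeq2 called 34 of all genes. Ugt1a6a had 19.3, 11.5 and 38.2 in KO MET/CAT livers, against 51.8, 229 and 111 in WT MET/CAT livers, and Ugt1a5 338, 103 and 367 in KO MET/CAT livers, against 615, 731 and 789 in WT MET/CAT livers. Both KO ranges lay below the WT range (log2 difference −2.37, SE 0.75, adjusted p = 0.501, and log2 difference −1.59, SE 0.52, adjusted p = 0.508). No overlap was seen for 1 member higher (Sult5a1) and 4 lower (Sult2a2, Ugt1a5, Ugt1a6a, Ugt2b37), beside 6.82% and 7.01% of all genes. Of the GST genes 15 of 19 were positive, with a median of 0.13, and the sign turned with a library left out: 6 of 19 and −0.07 without KO MET/CAT replicate 2, and 5 of 19 and −0.08 without WT MET/CAT replicate 2.

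Averaged over plasmids, KO against WT called no member, beside 0.0144% of all genes (0.00721% in each direction). Here 5 members (10.4%) had an unadjusted p under 0.05, against 8.11% of all genes, and neither edgeR nor DESeq2 called any, where DESeq2 called 39 of all genes. No member separated all KO from all WT libraries, which 0.123% of all genes did upward and 0.26% downward. The smallest p was that of Gstt3 (log2 difference −0.58, SE 0.18, adjusted p = 0.536). It had 1475, 1463 and 1357 in KO MET/CAT livers and 1897, 1256 and 1159 in WT MET/CAT livers, which overlapped, and its interaction was 1.22 (SE 0.35, adjusted p = 0.265). Sult4a1, best known from brain, was low everywhere, with 25.3, 9.42 and 7.43 in KO MET/CAT livers and 5.27, 25.0 and 19.0 in KO GFP livers, against 20.9, 29.5 and 25.6 in WT MET/CAT livers and 33.9, 44.2 and 44.2 in WT GFP livers (log2 difference −1.23, SE 0.41, adjusted p = 0.548). Ugt2b35 had a difference of 0.35 (SE 0.15, adjusted p = 0.592), opposite in sign to its MET/CAT difference.

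Several SULT genes varied widely between the libraries of a group. Sult2a1 and Sult2a2, hydroxysteroid sulfotransferases, and Sult3a1 are known to be more abundant in livers of female mice, and Gstp1 in those of males. Sult2a2 had 968, 8.37 and 2320.4 in KO MET/CAT livers and 339.5, 255 and 2148 in KO GFP livers, against 9354, 4213 and 2604 in WT MET/CAT livers and 2426, 594 and 1151 in WT GFP livers. It was highest in WT MET/CAT replicate 1 and lowest in KO MET/CAT replicate 2, a span of 1118-fold. KO minus WT livers over both plasmids gave log2 difference −2.57, SE 1.06, adjusted p = 0.583, and −1.35 without KO MET/CAT replicate 2. Without KO MET/CAT replicate 3 the MET/CAT difference over both genotypes turned negative (−0.30). Sult2a1 had 813, 17.8 and 1412 in KO MET/CAT livers and 112, 119 and 2248 in KO GFP livers, against 7805, 3123 and 1189.7 in WT MET/CAT livers and 1427, 170.0 and 989 in WT GFP livers. Sult3a1 had 224, 60.7 and 343 in KO MET/CAT livers and 216, 343 and 470.3 in WT MET/CAT livers, against 27.1, 5.76 and 459 in KO GFP livers and 139, 112 and 172 in WT GFP livers, with KO GFP replicates 1 and 2 lowest and WT MET/CAT replicate 3 highest. KO MET/CAT replicate 2, the lowest MET/CAT library for these 3 genes, was highest of all libraries for Gstp1 (28017) and Ugt2b38 (76.4). Ugt2b38, a low-level UGT of which 24.2% of windows also occur elsewhere, mostly in Ugt2b5, had 42.1, 76.4 and 13.8 in KO MET/CAT livers and 42.9, 39.4 and 26.2 in KO GFP livers, against 1.99, 15.8 and 21.1 in WT MET/CAT livers and 8.98, 51.0 and 5.20 in WT GFP livers (KO minus WT over both plasmids, log2 difference 1.56, SE 0.62, adjusted p = 0.579).

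All 12 libraries contained Xist RNA of the inactive X chromosome (878, 1938 and 1879.9 in KO MET/CAT livers, 1212, 2006 and 1548 in WT MET/CAT livers, 2287, 1530.2 and 1602 in KO GFP livers and 2299.6, 1804 and 2158 in WT GFP livers). The Y-linked genes Ddx3y, Eif2s3y, Kdm5d and Uty were at most 9.07 in any library. The 11 male-biased liver genes summed to 10606 to 35956 in KO MET/CAT livers, 7737 to 10622 in WT MET/CAT livers, 9750 to 32096 in KO GFP livers and 8581 to 25983 in WT GFP livers. The sum was highest in KO MET/CAT replicate 2, which had the lowest Sult2a1 and Sult2a2. It was also high in replicates 1 and 2 of KO GFP livers (29941 and 32096) and of WT GFP livers (21846 and 25983). Of these, WT GFP replicate 1 had the highest Sult2a2 of its group (2426). Cyp4a12a was 673 in KO MET/CAT replicate 2 and 93.9 and 23.4 in replicates 1 and 3 of that group. The 12 female-biased genes summed to 12992 to 25508 in KO MET/CAT livers, 17759 to 35480 in WT MET/CAT livers, 13458 to 17657 in KO GFP livers and 7433 to 15314 in WT GFP livers. Of these lists 1 gene each passed in MET/CAT against GFP over both genotypes, both lower: Hsd3b5 (log2 difference −3.38, SE 0.75, adjusted p = 0.0241) and Acot3 (log2 difference −1.72, SE 0.41, adjusted p = 0.0348). The lists leaned opposite ways. Of 10 tested male-biased genes 8 were lower (median −0.63), and of 10 tested female-biased genes 8 were higher (median 0.54). Acot3 was 1 of the 2 female-biased genes that were lower. Their part in the SULT values was not tested.

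**Figure D5:**
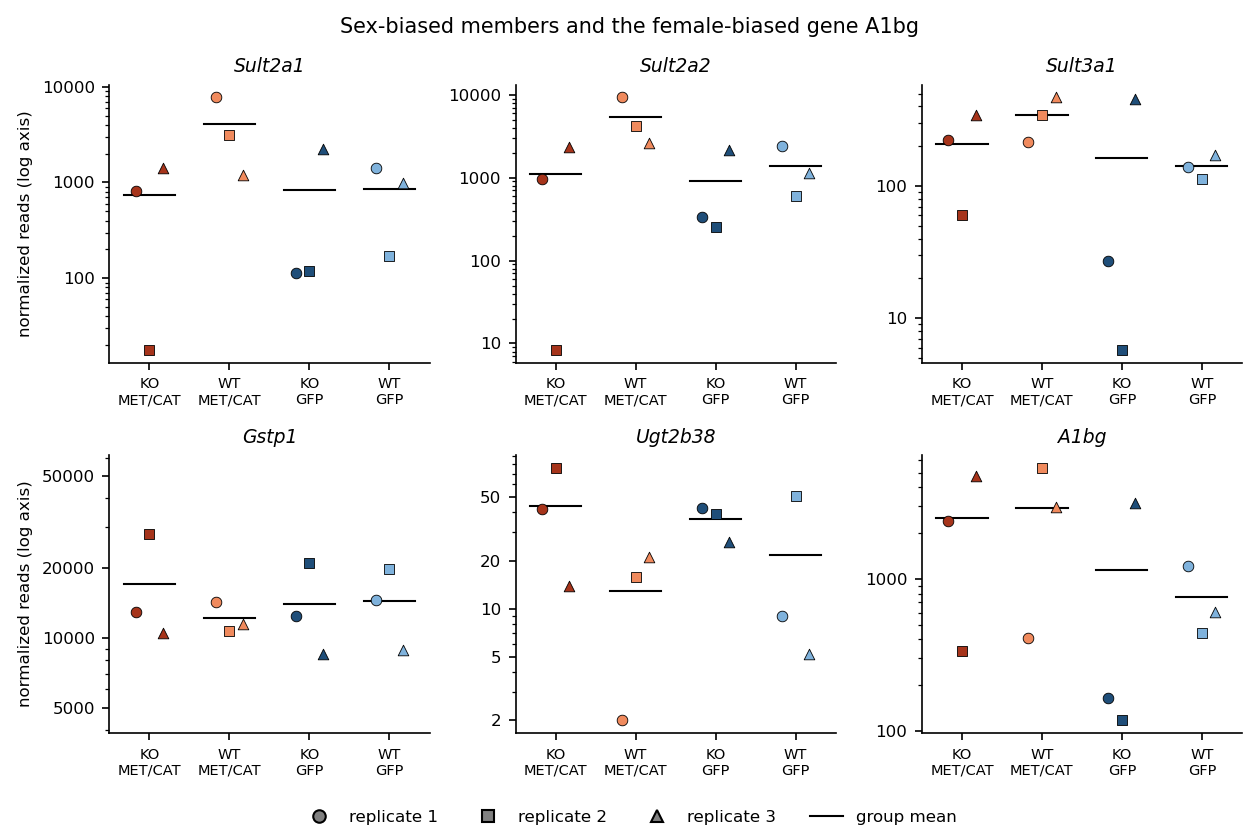
Normalized reads (log axis) of Sult2a1, Sult2a2, Sult3a1, Gstp1, Ugt2b38 and the female-biased liver gene A1bg in each library, by group, with a bar at each group's mean. KO MET/CAT replicate 2 is lowest for Sult2a1 and Sult2a2 and highest for Gstp1 and Ugt2b38.

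Genes that supply the 3 reactions were compared in the same fit. Of 3 genes for UDP-glucuronic acid, the sugar donor of most UGTs, Ugp2, which makes UDP-glucose, fell in MET/CAT livers averaged over genotypes (log2 difference −0.67, SE 0.14, adjusted p = 0.0169). It had 3846, 3766 and 4402 in KO MET/CAT livers and 4129, 4041 and 2713 in WT MET/CAT livers, against 6800.0, 6670.2 and 5094 in KO GFP livers and 5615, 5944 and 6095 in WT GFP livers, and all MET/CAT libraries were below all GFP libraries. The sum over Ugp2, Ugdh and the transporter gene Slc35d1 was 7284 to 7484 in KO MET/CAT livers and 5855 to 7721 in WT MET/CAT livers, against 10557 to 12029 in KO GFP livers and 9167 to 10483 in WT GFP livers. Of 7 tested genes for glutathione supply, Cbs, the first enzyme from homocysteine toward cysteine, rose (log2 difference 0.67, SE 0.14, adjusted p = 0.018), and none fell. Within KO livers Gclm, the modifier subunit of the enzyme that starts glutathione synthesis, fell (log2 difference −0.78, SE 0.18, adjusted p = 0.0468). It had 2772, 1910.3 and 2080.5 in KO MET/CAT livers, against 3645, 3525 and 4336 in KO GFP livers. KO GFP replicate 3 was the highest, and no fit of Gclm without it is given. None of 5 PAPS genes, the sulfate donor's makers and carriers, passed in the averaged comparison.

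Of 12 tested transferases outside the 3 families, none passed in the averaged comparison. Within KO livers 1 rose, Nnmt, which methylates nicotinamide (log2 difference 1.76, SE 0.30, adjusted p = 0.0133). Of 5 measured genes for export and cleavage of conjugates, none passed over both genotypes. Within KO livers 1 fell, Abcc2, the pump for conjugates into bile (log2 difference −1.06, SE 0.24, adjusted p = 0.0458). It had 2854, 1989 and 2188 in KO MET/CAT livers, against 4483, 3641 and 6896 in KO GFP livers. KO GFP replicate 3 was the highest, and no fit of Abcc2 without it is given. Of 8 tested CAR and PXR targets, Cyp2b10 rose over both genotypes (log2 difference 2.79, SE 0.46, adjusted p = 0.0056). Of 12 NRF2 targets, 1 rose, Hmox1, the heme oxygenase (log2 difference 1.76, SE 0.46, adjusted p = 0.049), with KO MET/CAT replicate 1 at 5169.6 and the other MET/CAT libraries at 399.7 to 905. None of 4 tested AHR targets and none of 15 regulators, among them Nfe2l2, Nr1i3, Ahr and Hnf4a, passed. Pericentral and beta-catenin markers, the genes of hepatocytes near the central vein, gave 6 of 14 higher: Glul, Slc1a2 and Tbx3 (1.54, 1.11 and 1.10 on the log2 scale), Axin2, Lhpp and Gulo. Neutrophil markers gave 6 of 6 higher, with Mmp8 the highest in fold (log2 difference 4.15, SE 0.63, adjusted p = 0.00311), and their sum was 409 to 3060 in KO MET/CAT livers and 312 to 1059 in WT MET/CAT livers, against 57 to 82 in KO GFP livers and 77 to 175 in WT GFP livers, with no marker at 0 in every library. Of 13 acute phase genes, 9 passed over both genotypes, all higher (median log2 difference of the 13 genes 2.01). The part of these lists in the member values was not tested, and hepatocyte markers gave none of 8 passing.

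Of the 16 symbols below the level filter, Sult1c1, Sult6b1, Sult6b2, Ugt2a1 and Ugt2a2 had no read in any library, which allows up to 2.26 to 3.61 normalized reads a library (3 reads, counting error only). Sult1e1, the estrogen sulfotransferase, Sult2a3, Sult2a4 and Ugt1a7c reached 10 in 2 libraries and lay just outside the filter, while Sult3a2 and Sult2a6, with 4 libraries at 10 or more, lay just inside it. Sult3a2 had 18.1, 0 and 17.0 in KO MET/CAT livers and 0, 0 and 25.6 in WT MET/CAT livers, against 0, 0 and 16.3 in KO GFP livers and 0, 3.40 and 0.866 in WT GFP livers. Gsto2, Gstt4, Sult2b1, Ugt1a10, Ugt1a2, Ugt1a8 and Ugt8a were at 13.0 or less in every library. The other members that were not described singly, such as Gstm4, Gstm5, Gsta1, Gsta2, Gsta4, Gstp2, Sult2a5, Sult2a7, Ugt1a1, Ugt1a9, Ugt2a3, Ugt2b37 and Ugt3a1, did not pass in any comparison.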

How the data were processed

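The authors sequenced RNA from whole mouse liver in 12 libraries. The submitters' processing notes name HISAT2 2.0.4, HTSeq 0.11.2 and GRCm38. Strand setting and normalization tool are not stated, and reads of overlapping or antisense genes may not be told apart. The values the authors deposited are a signal per gene, gene counts divided by 1 factor per library, with 0.753 to 1.204 normalized reads per read. Dividing by that step gave whole reads for 100% of values (tolerance 0.001 reads); for the first replicates of WT GFP and WT MET/CAT the step is near 1, which proves nothing. The recovered reads came to 18208879 to 24352961 per library, which limits precision for low genes, and floors cover counting error only.

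Since the unit is not raw counts, limma 3.58.1 (R 4.3.3) with a mean-variance trend was fitted to log2(value + 1) with 4 group means over all 12 libraries and no block, for genes that reached 10 in 3 or more libraries, with Benjamini-Hochberg adjustment over 13871 genes. Fold changes are on that scale, which understates changes of low genes. The script was tested on simulated data. Alternatives were other pseudocounts and filters, equal library totals, quantile normalization, library quality weights, edgeR 4.0.16 and DESeq2 1.42.0 on recovered reads, a replicate block, removal of the trend with transcript length, the 6 libraries compared alone and each library left out. Positions and lengths came from GENCODE M21 and promoters from RefSeq (GRCm38.p6). Members described library by library were those called, the 3 most abundant per family, those with the smallest p per comparison (5 in the averaged ones, 3 in the others) and those without overlap between plasmids or genotypes. The members, lists and rule were chosen with earlier results of these data known. A few members were added after their values were seen: Ugt1a and SULT genes with large spread, and the genes listed as not overlapping. Python 3.11.15 and matplotlib 3.10.9 drew the figures.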

Additional observations from a re-analysis of the deposited data

Results flagged for a closer look

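Ugt1a5 was picked out because the plasmid effect ran in opposite directions in the 2 genotypes. All 3 KO MET/CAT libraries were below the KO GFP libraries (338, 103 and 367 in KO MET/CAT livers, against 602, 369.8 and 988 in KO GFP livers), and all 3 WT MET/CAT libraries were above the WT GFP libraries (615, 731 and 789 in WT MET/CAT livers, against 287, 156 and 600.3 in WT GFP livers). The gaps were narrow, 367 against 369.8 in KO livers and 615 against 600.3 in WT livers. Taken singly, such an order was seen for 10.7% of all genes downward in KO livers and 10.5% upward in WT livers. How many of all genes showed opposite orders in the 2 genotypes was not counted. The difference between the 2 effects was −2.60 on the log2 scale, and the limma interaction test did not pass (adjusted p = 0.265, range over the alternatives 0.0190 to 0.506, passing with library quality weights). Ugt1a5 shares its later exons with the other Ugt1a genes, and their part in the value was not tested.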

How the results depend on the processing

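Counts of members called moved with the setting, and always upward. For MET/CAT against GFP averaged over genotypes (2 called) they were 6 with DESeq2 (8.21% of all genes were called there), 7 with equal library totals (4.67%), 14 with library quality weights (17.1%), 4 with quantile normalization (4.03%) and 5 with the length trend removed (4.89%). In KO livers (0 called) they were 4 with DESeq2 (6.69% of all genes), 3 with equal totals (1.38%), 11 with weights (11.8%), 3 with quantile normalization (1.43%), 1 with the replicate block (1.35%) and 2 with the length trend removed (1.81%). In WT livers (0 called) they were 4 with DESeq2 (4.09%), 1 with equal totals (0.512%), 13 with weights (18.9%) and 1 with the length trend removed (0.896%). KO against WT in GFP livers (0 called) gave 1 with DESeq2 (0.851%) and 20 with weights (33.0%), the average over plasmids (0 called) 1 with weights (1.15%), and the interaction (0 called) 1 with DESeq2 (1.12%) and 10 with weights (9.91%). The cause was not tested. With 1 library left out, the averaged MET/CAT count was 2 to 3 (Gstm2 without KO GFP replicate 2 or WT MET/CAT replicate 2, Sult3a1 without KO GFP replicate 3), that in KO livers 0 to 1 (Sult3a1 without KO GFP replicate 3) and that in WT livers 0 to 1 (Sult5a1 without WT GFP replicate 3). Gstm3 and Ugt2b35 passed in all 23 alternatives of the averaged comparison. With equal totals the all-gene median there was −0.14, against 0.02 as reported. Deviations of same-numbered libraries had correlations of −0.195 to 0.280. Libraries of unlike number were not compared, so whether the replicate number marks a pairing is not known. A replicate block changed no member's call beyond the count above and 3 called in the averaged comparison. Signs turned for Gsta3 (−0.00298 with equal totals, −0.0917 with weights), Gstp1 (−0.128 equal totals, −0.116 quantile, −0.0777 weights, −0.00353 edgeR, −0.000595 DESeq2, −0.0395 length trend removed, −0.173 to 0.209 with a library left out) and Sult2a2 (−0.301 without KO MET/CAT replicate 3, up to 1.69 without KO MET/CAT replicate 2).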

Other observations

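The CAR and PXR target Cyp2b10 rose with MET/CAT over both genotypes, and its relatives Cyp2b9 and Cyp2b13, which are known to be female-biased, gave a pattern of their own in the libraries with the highest Sult2a1 and Sult2a2. Cyp2b9 was 8586 and 6216 normalized reads and Cyp2b13 6738 and 2727 in WT MET/CAT replicates 1 and 2. In the other 10 libraries Cyp2b9 was at most 0.866 and Cyp2b13 was at 0. Both genes failed the level filter of 3 libraries and were not tested, and they were chosen after their values were seen. Sult2a1 was 7805 and 3123 in those libraries, and at most 2248 in any other.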
